A study of Homo sapiens with 4 samples.

Results

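Epithelial keratins are described here as 10 genes taken by symbol, KRT7, KRT8, KRT10, KRT15, KRT17, KRT18, KRT19, KRT20, KRT23 and KRT80, out of 58051 gene identifiers with a transcript level in the deposited tables. All 10 were found. Poly(A) RNA was sequenced from 2 established human cancer cell lines described as epithelial and of genotype WT: H441, from a lung adenocarcinoma, and HT29, from a colorectal adenocarcinoma. Each line was kept for 7 days in RPMI-1640, a conventional culture medium, or in HPLM, a medium made to resemble the small-molecule content of human plasma, and both media held 10% FBS and 1% P/S. The 4 groups are therefore H441 in RPMI-1640, H441 in HPLM, HT29 in RPMI-1640 and HT29 in HPLM, with 1 sample listed and 3 numbered columns, called libraries here, in each. The labels do not state whether the libraries of a group are separate cultures. Each p-value therefore reflects the spread between libraries, and that spread may be technical. The design asks how far the transcripts of each line differed between the media.

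Keratins are the intermediate filament proteins of epithelial cells. A filament is built from pairs of a type I (acidic) and a type II (basic) keratin, so that each cell needs members of both types. KRT8 and KRT18 are the first pair of simple, single-layered epithelia, KRT7 and KRT19 accompany them in glands and ducts, and KRT20 marks the intestinal lining; pathologists read KRT7 and KRT20 together to tell carcinomas of lung and colon apart. KRT10 belongs to the upper layers of epidermis, KRT15 to basal cells, and KRT17 to skin appendages and wounded epithelium. KRT80 is a type II keratin linked to cell junctions, and KRT23 is a type I keratin of less settled function.

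Of the 10 genes, 3 are type II (KRT7, KRT8, KRT80) and 7 type I. In the GENCODE 29 annotation of GRCh38 the type II genes and KRT18 lie on chromosome 12. These are KRT80 (ENSG00000167767, 52168996 to 52192000, minus strand), KRT7 (ENSG00000135480, 52232520 to 52252186, plus strand), KRT8 (ENSG00000170421, 52897187 to 52949954, minus strand) and KRT18 (ENSG00000111057, 52948871 to 52952901, plus strand). The other type I genes lie on the minus strand of chromosome 17. These are KRT10 (ENSG00000186395, 40818117 to 40822595), KRT20 (ENSG00000171431, 40875941 to 40885227), KRT23 (ENSG00000108244, 40922696 to 40937634), KRT15 (ENSG00000171346, 41513743 to 41522529), KRT19 (ENSG00000171345, 41523617 to 41528308) and KRT17 (ENSG00000128422, 41619441 to 41624842). All are protein-coding, and values below are for whole genes.

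Because the libraries are unstranded, genes that overlap on opposite strands cannot be told apart. KRT80 overlaps LINC00592 by 23005 bases and KRT23 an antisense gene (ENSG00000234477) by 14939 bases. KRT10 overlaps KRT10-AS1 by 3490 bases, KRT7 its antisense RNA KRT7-AS by 2401 bases and the pseudogene KRT87P by 1721 bases, and KRT8 and KRT18 overlap each other by 1084 bases. On its own strand KRT7 also overlaps KRT86 by 2887 bases. Sequence shared with other genes is a further limit. The share of a gene's distinct 31-base words that also occur in transcripts of another gene was 35% for KRT18, 25.3% for KRT8 and 22.5% for KRT17, against 0% for KRT20, 1.3% for KRT80 and 1.45% for KRT10, and 4.09 to 7.43% for the remaining 4. Both strands were searched, so words in opposite-strand overlaps count as shared too. KRT8 held 14.1% of the words of KRT18, and KRT7-AS held 6.07% of those of KRT7. How reads with several matches were counted is not given in the sources used here, so levels of KRT8, KRT17 and KRT18 are the least certain.

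The 12 libraries held 14.2 to 30.6 M reads. HT29 RPMI-1640 library 1 stood apart: chi-square divided by degrees of freedom was 178 and 227 when its reads were compared with libraries 2 and 3, but 12.2 between those libraries and 1.81 to 13.8 inside the other groups. Results for HT29 in RPMI-1640 are therefore given with and without it. Mitochondrially encoded genes took 24.1 to 28.9% of TPM, the deposited level corrected for transcript length and library size, in H441 in RPMI-1640 and 17.5 to 21.7% in HPLM, and in HT29 19.3 to 30.2% and 29.6 to 38.7%. EPCAM, the epithelial adhesion molecule, lay between 781 and 1259 TPM in all libraries. Summed over 3 lung markers the level was 342 to 384 TPM in H441 and at most 2.80 TPM in HT29, and over 4 colon markers it was 469 to 1051 TPM in HT29 and at most 3.83 TPM in H441. Among genes that mark other cells, 1 TPM was reached somewhere by 2 of 8 for fibroblasts, 3 of 5 for endothelium and 7 of 7 for leukocytes. In H441 the fibroblast list was carried by COL1A1 at 33.9 to 44.8 TPM and LUM at 25.6 to 33.5 TPM, and the endothelial list by KDR at 18.1 to 20.5 TPM. The other 6 fibroblast genes did not pass 0.105 TPM in any library, and CDH5 and VWF of endothelium did not pass 0.686 TPM. TEK of endothelium stood at 1.45 to 2.45 TPM in H441, and PECAM1 reached 1.20 TPM in HT29 in RPMI-1640. Summed levels were 59.9 to 77.5 TPM (fibroblast), 21.1 to 24.0 TPM (endothelium) and 14.2 to 24.0 TPM (leukocyte) in H441, and 0.684 to 2.40, 0.343 to 1.37 and 14.3 to 49.2 TPM in HT29. Of markers of stratified epithelium 4 of 7 reached 1 TPM. Their sum was 262 to 354 TPM in H441, mostly KRT4, and 1.29 to 10.5 TPM in HT29, where KRT13 reached 8.88 TPM in RPMI-1640 library 1. In H441 TP63 stood at 5.42 to 6.35 TPM and KRT6A at 1.39 to 2.68 TPM. The basal keratins KRT5 and KRT14, and DSG3, did not pass 0.213 TPM in any library. The part of these genes in the keratin results was not tested. In bulk RNA, fewer cells with a transcript and less of it per cell cannot be told apart.

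Keratin transcripts were among the most abundant of both lines, and a handful of genes carried nearly all of them. KRT7, KRT8, KRT18, KRT19 and KRT20 together made up 96.1 to 98.8% of the TPM of the 10 genes in each library. In HT29 in RPMI-1640 KRT18 ranked 27 and KRT8 45 by mean TPM among all identifiers. In H441 in RPMI-1640 KRT19 ranked 39, KRT18 62, KRT7 88 and KRT8 108, while in HPLM KRT7 ranked 46. The 10 genes summed to 0.536% ± 0.0178 (SD, n = 3) of all TPM in H441 in RPMI-1640 and to 0.703% ± 0.246 in HT29 in RPMI-1640, where library 1 alone gave 0.985% and the other libraries 0.538% and 0.585%.

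**Figure D1:**
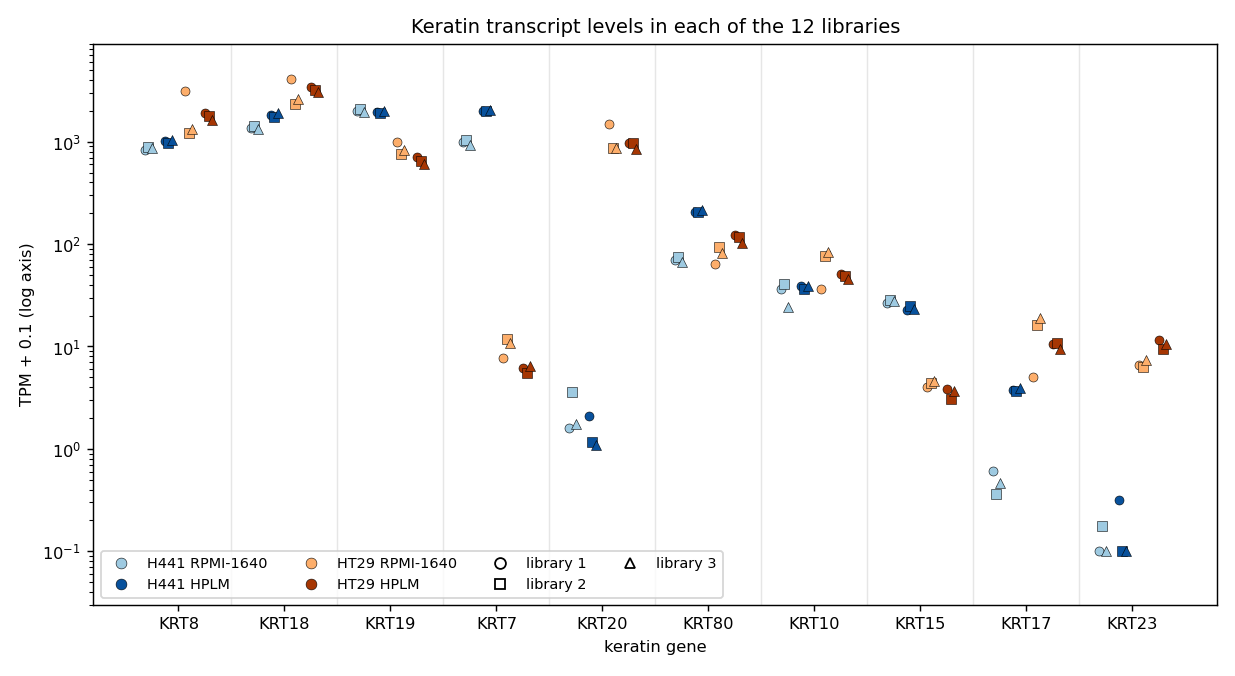
Transcript level of the 10 keratin genes in each of the 12 libraries, as TPM + 0.1 on a log axis; colours mark line and medium, and circles, squares and triangles mark libraries 1, 2 and 3. KRT7 lies at 931 to 2058 TPM in H441 and at 5.40 to 11.6 TPM in HT29, KRT20 the other way round, and the circle of HT29 in RPMI-1640 sits apart from the square and triangle for KRT8, KRT18, KRT20, KRT10 and KRT17.

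The order of the levels differed between the lines. In H441 in RPMI-1640 it ran KRT19, KRT18, KRT7, KRT8, KRT80, KRT10, KRT15, KRT20, KRT17, KRT23, and among neighbours only the libraries of KRT10 and KRT15 overlapped. In HPLM KRT7 and KRT19 shared the top place with overlapping libraries, followed by KRT18, KRT8, KRT80, KRT10, KRT15, KRT17, KRT20 and KRT23. In HT29 in HPLM it ran KRT18, KRT8, KRT20, KRT19, KRT80, KRT10, KRT23, KRT17, KRT7, KRT15, and only KRT23 and KRT17 overlapped. In HT29 in RPMI-1640 the mean order was KRT18, KRT8, KRT20, KRT19, KRT80, KRT10, KRT17, KRT7, KRT23, KRT15. There 5 neighbouring pairs overlapped, and without library 1 a single pair did, KRT80 and KRT10.

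The lines were set against each other in each medium with limma on log2(TPM + 1), HT29 minus H441, with Benjamini-Hochberg adjustment over 19212 genes and a threshold of 0.05. In RPMI-1640 9 of the 10 keratins differed, 6 higher and 3 lower in HT29; among all genes tested 55.3% differed, 25% higher and 30.3% lower. Without HT29 RPMI-1640 library 1 all 10 differed in RPMI-1640, 7 higher and 3 lower, against 71.5% of 19045 genes, 30.8% higher and 40.7% lower. In HPLM 9 of 10 differed, 5 higher and 4 lower, against 62.7% of all genes, 22.3% higher and 40.4% lower, and the counts were the same without that library, against 75.5% of genes, 27.6% higher and 47.9% lower. The median log2 difference of the 10 was 0.93 in RPMI-1640 and 0.57 in HPLM, beside -0.08 and -0.27 over all genes. KRT23, and in RPMI-1640 KRT17, reached the minimum level in one of the lines alone, so a difference was bound to follow.

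KRT7 and KRT20 stood at opposite ends. In RPMI-1640 the H441 libraries held 991, 1028 and 931 TPM of KRT7 and the HT29 libraries 7.63, 11.6 and 10.8 TPM. The log2 difference was -6.50 ± 0.14 (SE, adjusted p = 6.15e-11). In HPLM the H441 libraries held 1997, 1982 and 2058 TPM of KRT7 and the HT29 libraries 6.11, 5.40 and 6.34 TPM, a log2 difference of -8.18 ± 0.14 (adjusted p = 2.89e-11). The KRT7 libraries of the lines lay far apart in both media. KRT20 measured 1504, 875 and 863 TPM in HT29 in RPMI-1640. The H441 libraries held 1.49, 3.49 and 1.66 TPM, which rested on 19, 29 and 23 reads. The log2 difference of KRT20 was 8.40 ± 0.28 (adjusted p = 1.32e-09), and 8.13 without HT29 RPMI-1640 library 1. In HPLM KRT20 stood at 972, 965 and 849 TPM in HT29 and at 2.02, 1.07 and 0.990 TPM in H441 (log2 difference 8.65 ± 0.28, adjusted p = 1.01e-09).

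KRT10 lies 53.3 kb from KRT20 on chromosome 17. KRT23 lies nearer to KRT20, at 37.5 kb, but had no entry in the promoter table. The stretches upstream of KRT20 and KRT10 are shown, since both lines transcribed KRT10 while the levels of these 2 genes differ so much in H441. Each is the 250 bases before the transcript start on the minus strand, 5′ to 3′, from RefSeq (GRCh38.p14). Capitals mark TTTAT, the core that CDX factors of intestinal epithelium bind, on either strand (ATAAA where it lies on the other strand), and TATAAA, the TATA box core.
KRT20 (chr17:40885243-40885492): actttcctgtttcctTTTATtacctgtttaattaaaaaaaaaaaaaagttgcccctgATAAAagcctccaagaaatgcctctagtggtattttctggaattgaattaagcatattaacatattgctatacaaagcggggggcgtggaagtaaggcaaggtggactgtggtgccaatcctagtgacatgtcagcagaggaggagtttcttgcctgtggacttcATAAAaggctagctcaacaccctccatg
KRT10 (chr17:40822615-40822864): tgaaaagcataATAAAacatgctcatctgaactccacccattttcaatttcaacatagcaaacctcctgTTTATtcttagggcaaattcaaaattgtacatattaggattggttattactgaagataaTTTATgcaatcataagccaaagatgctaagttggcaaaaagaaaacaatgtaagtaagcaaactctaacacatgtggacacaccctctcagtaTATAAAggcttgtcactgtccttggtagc
KRT20 held TTTAT 3 times, at bases 235 to 231, 193 to 189 and 28 to 24 before the start. KRT10 held it 4 times, at bases 239 to 235, 181 to 177, 122 to 118 and 28 to 24, and the last of these overlaps a TATAAA at bases 29 to 24. Searched on both strands, TTTAT occurred in 32.7% and TATAAA in 10.7% of 35116 such windows. These matches are a description of letters and show no binding. Of the 10 keratins, 3 had an entry in the promoter table, and the entry of KRT8, which starts inside the annotated gene, held neither word. CDX2, the homeobox factor of intestinal epithelium, stood in HT29 at 3.79, 6.05 and 6.30 TPM with RPMI-1640 and at 3.51, 3.23 and 2.95 TPM with HPLM, while in H441 it did not pass 0.0539 TPM.

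The other type I keratins of simple epithelia split in direction between the lines. KRT19, a keratin with a very short tail, was at 2013, 2090 and 1957 TPM in RPMI-1640 in H441, against 1002, 751 and 839 TPM for HT29. Its log2 difference was -1.23 ± 0.11 (adjusted p = 5.57e-06), and in HPLM it was -1.58 ± 0.11 (adjusted p = 6.57e-07). In RPMI-1640 KRT18 was at 1362, 1411 and 1327 TPM in H441, against 4116, 2334 and 2625 TPM for HT29, a log2 difference of 1.10 ± 0.18 (adjusted p = 3.70e-04). Its type II partner KRT8 was at 829, 883 and 872 TPM in H441, against 3109, 1213 and 1319 TPM for HT29 (0.99 ± 0.29, adjusted p = 0.0135). Each HT29 library lay above each H441 library for both partners, and library 1 gave the highest value of each. Without that library the difference of KRT8 was 0.55 ± 0.08 (adjusted p = 1.84e-04) and that of KRT18 0.86 ± 0.08 (adjusted p = 6.24e-06). In HPLM KRT18 differed by 0.82 ± 0.18 (adjusted p = 0.00219) and KRT8 by 0.80 ± 0.29 (adjusted p = 0.0312). The KRT8 call in HPLM was lost when any one of the 6 HPLM libraries was left out (adjusted p 0.0521 to 0.0834). The ratio of KRT8 to KRT18 TPM lay between 0.503 and 0.657 in 11 libraries and at 0.755 in HT29 RPMI-1640 library 1.

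Among the less abundant type I keratins, KRT15 was lower in HT29 and KRT17 and KRT23 were higher. In RPMI-1640 KRT15 stood at 26.5, 28.2 and 27.9 TPM in H441, against 3.91, 4.31 and 4.51 TPM for HT29 (log2 difference -2.45 ± 0.10, adjusted p = 6.70e-09), with -2.48 ± 0.10 in HPLM. KRT17 stood at 0.515, 0.263 and 0.367 TPM in H441, from 9, 3 and 7 reads, and at 4.91, 16.0 and 18.9 TPM in the HT29 libraries. The difference of KRT17 was 3.19 ± 0.36 (adjusted p = 2.47e-05) in RPMI-1640 and 1.25 ± 0.36 (adjusted p = 0.0109) in HPLM. KRT23 was listed at 0 in 4 of 6 H441 libraries and reached 0.214 TPM at most, while HT29 held 6.56, 6.16 and 7.30 TPM in RPMI-1640 and 11.5, 9.42 and 10.5 TPM in HPLM. Its log2 difference was 2.90 ± 0.11 and 3.42 ± 0.11 (adjusted p = 5.20e-09 and 1.38e-09).

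KRT80 and KRT10 were the 2 genes whose call depended on the medium. In RPMI-1640 the KRT80 libraries were at 69.5, 74.2 and 66.5 TPM for H441 and at 64.1, 93.3 and 82.1 TPM for HT29, with overlapping libraries and a log2 difference of 0.17 ± 0.14 (adjusted p = 0.316). Without HT29 library 1 that difference was 0.32 ± 0.10 (adjusted p = 0.0135). In HPLM KRT80 was lower in HT29, by -0.88 ± 0.14 on the log2 scale (adjusted p = 2.43e-04). For KRT10 they were at 36.4, 40.7 and 24.1 TPM and at 36.0, 76.4 and 84.1 TPM, with overlap at the low end of HT29 (0.88 ± 0.29, adjusted p = 0.0245). The KRT10 call was lost without H441 library 3 (0.66, adjusted p = 0.0965), HT29 library 2 (0.72, adjusted p = 0.0878) or HT29 library 3 (0.66, adjusted p = 0.0932), while without HT29 library 1 the value was 1.26 ± 0.18 (adjusted p = 1.66e-04). In HPLM the KRT10 difference was 0.34 ± 0.29 (adjusted p = 0.320).

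**Figure D2:**
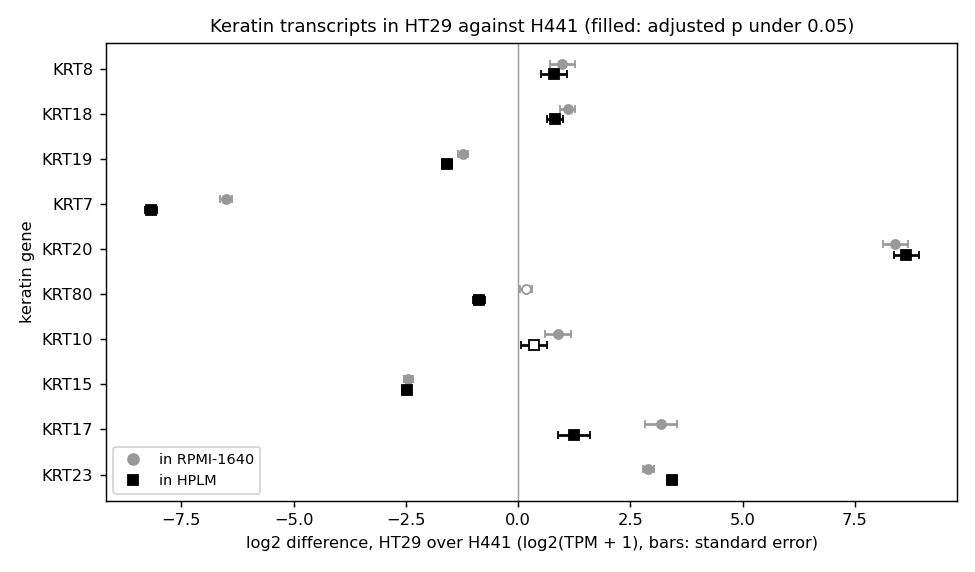
Log2 difference between HT29 and H441 (limma on log2(TPM + 1), bars are standard errors) for each keratin in RPMI-1640 (grey circles) and HPLM (black squares), filled where the adjusted p is under 0.05. KRT20 lies at 8.40 and 8.65 and KRT7 at -6.50 and -8.18; KRT80 in RPMI-1640 and KRT10 in HPLM are open.

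In H441, HPLM raised a group of keratins, led by KRT80 and KRT7 among those at the minimum level in both media. Of 9 keratins tested, 5 rose and 1 fell (limma, Benjamini-Hochberg adjustment over 16458 genes). Among all genes 33.7% rose and 11.3% fell, 45% in all. The median log2 change was 0.23 over the 9 keratins and 0.14 over all genes. The count of raised keratins and the median include KRT17, which passed the minimum level through its HPLM libraries alone. The split of all genes depends on scaling: 5546 rose and 1858 fell here, 3873 and 3497 under trimmed mean scaling, which moved the median to 0.02. The split of the keratins does too. KRT8 lost its call without mitochondrially encoded genes, under trimmed mean scaling or median centring, and with edgeR or DESeq2. KRT19 was called lowered under each of these. Of the 10 keratins 6 had HPLM libraries that lay wholly on one side of the RPMI-1640 libraries, and in HT29 5 did. The share of all genes with such a split was not counted, so these numbers are descriptions. KRT23 stayed under the minimum level and was not tested.

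KRT7, the type II keratin of glands, rose from 983 ± 48.8 TPM (SD, n = 3) to 2012 ± 40.4 TPM, with every HPLM library above every RPMI-1640 library. Its log2 change was 1.03 ± 0.06 (adjusted p = 2.12e-04). KRT80 rose from 69.5, 74.2 and 66.5 TPM to 206, 204 and 215 TPM, a log2 change of 1.56 ± 0.06 (adjusted p = 1.19e-04). KRT17, known from wounded epithelium, was near absent in RPMI-1640 with 3 to 9 reads and reached 3.67, 3.59 and 3.82 TPM in HPLM, from 45, 60 and 53 reads. Its change on the log2(TPM + 1) scale was 1.77 ± 0.08 (adjusted p = 1.54e-04), and with a pseudocount of 0.1 in place of 1 it was 3.01. KRT17 passed the minimum level through its HPLM libraries alone, so its rise is a description.

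The KRT8 and KRT18 pair moved less. KRT18 went from 1367 ± 42.1 to 1819 ± 78.8 TPM, with libraries at 1838, 1733 and 1887 TPM in HPLM, a log2 change of 0.41 ± 0.05 (adjusted p = 0.00270). KRT8 went from 829, 883 and 872 TPM to 1015, 976 and 1037 TPM, a log2 change of 0.23 ± 0.05 (adjusted p = 0.0155). The KRT8 call was lost when mitochondrially encoded genes were removed before scaling (0.09, adjusted p = 0.164), under trimmed mean scaling (0.09, adjusted p = 0.185) and median centring (0.05, adjusted p = 0.412), and on recovered reads with edgeR (0.08, adjusted p = 0.0707) and DESeq2 (0.07, adjusted p = 0.0859). It was also lost without RPMI-1640 library 1 (adjusted p = 0.0583), HPLM library 1 (adjusted p = 0.0503) or HPLM library 3 (adjusted p = 0.0535). The ratio of KRT8 to KRT18 TPM was 0.630 ± 0.0244 in RPMI-1640 and 0.555 ± 0.00735 in HPLM, without overlap (exact permutation test, two-sided p = 0.1, the smallest that 3 against 3 libraries allow).

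KRT19, the most abundant keratin of H441 in RPMI-1640, was at 1954, 1917 and 2011 TPM in HPLM, and its libraries in the media overlapped. Its log2 change was -0.04 ± 0.05 (adjusted p = 0.524), but it fell past the threshold without mitochondrially encoded genes (-0.18, adjusted p = 0.0110), under trimmed mean scaling (-0.19, adjusted p = 0.00970) and median centring (-0.22, adjusted p = 0.00403), and with edgeR (-0.19, adjusted p = 3.64e-05) and DESeq2 (-0.20, adjusted p = 3.73e-12). KRT15 fell from 27.5 ± 0.918 to 23.5 ± 1.08 TPM, a log2 change of -0.22 ± 0.06 (adjusted p = 0.0244). The KRT15 call was lost with no minimum level (adjusted p = 0.0543) and without RPMI-1640 library 2 (adjusted p = 0.0695), RPMI-1640 library 3 (adjusted p = 0.0615), HPLM library 1 (adjusted p = 0.0744) or HPLM library 3 (adjusted p = 0.0711). KRT20 went from 2.21 ± 1.11 to 1.36 ± 0.571 TPM (-0.42 ± 0.28, adjusted p = 0.272), and KRT10 from 33.7 ± 8.64 to 38.1 ± 1.45 TPM (0.20 ± 0.19, adjusted p = 0.439). In the authors' deposited table for H441 the log2 fold change was 1.42 for KRT80, 3.06 for KRT17, 0.87 for KRT7, 0.25 for KRT18, 0.07 for KRT8, -0.20 for KRT19 and -0.38 for KRT15.

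**Figure D3:**
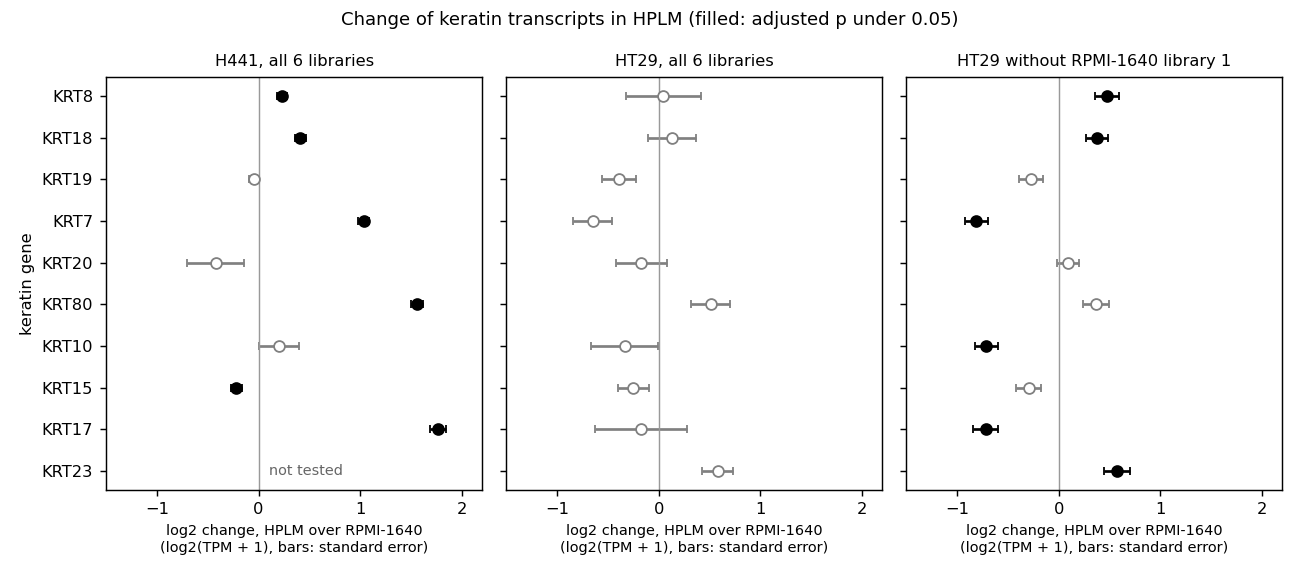
Log2 change of each keratin in HPLM against RPMI-1640 (limma on log2(TPM + 1), bars are standard errors), filled where the adjusted p is under 0.05, for H441, for HT29 with all libraries, and for HT29 without RPMI-1640 library 1. KRT7 and KRT17 lie right of zero in H441 and left of it in HT29, and no HT29 point is filled until the library that stands apart is left out.

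In HT29 no keratin passed the test with all libraries: 0 of 10 with limma, against 6.11% of 16352 genes (999 genes), 2.53% raised and 3.58% lowered. At an unadjusted p under 0.05 there were 3, KRT7, KRT23 and KRT80, against 4052 of the 16352 genes. On recovered reads edgeR called 0 and DESeq2 1, KRT23. Over all genes edgeR called 842 raised and 934 lowered of 15946, and DESeq2 1490 raised and 1926 lowered of 16126. The spread of RPMI-1640 library 1 enters each of these counts. That library held the highest TPM of its group for KRT8 (3109 against 1213 and 1319), KRT18 (4116 against 2334 and 2625) and KRT20 (1504 against 875 and 863), and the lowest for KRT10 (36.0 against 76.4 and 84.1) and KRT17 (4.91 against 16.0 and 18.9). It was also at 285 TPM for LMNB1, a nuclear lamin, against 61.2 and 58.4 TPM, and at 511 TPM for LGALS4, a lectin of colon epithelium, against 1005 and 979 TPM. The part of these differences in the result was not tested.

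Without that library 6 of the 10 keratins passed, 3 raised and 3 lowered, against 41.6% of 16038 genes, 19.9% raised and 21.7% lowered. KRT8 rose by 0.48 ± 0.12 (adjusted p = 0.0177), from 1266 ± 75.0 TPM (SD, n = 2) to 1765 ± 143 TPM (n = 3). KRT18 rose by 0.38 ± 0.11 (adjusted p = 0.0345), with HPLM libraries at 3393, 3201 and 3057 TPM. KRT23 rose by 0.57 ± 0.13 (adjusted p = 0.0125), and with all libraries it gave 0.58 ± 0.15 (adjusted p = 0.0777); its 3 HPLM libraries lay above the 3 RPMI-1640 libraries. KRT7, which rose in H441, had a log2 change of -0.81 ± 0.11 (adjusted p = 0.00202), and of -0.65 ± 0.19 (adjusted p = 0.102) with all libraries; its HPLM libraries at 6.11, 5.40 and 6.34 TPM lay below those in RPMI-1640. KRT17 fell by 0.72 on the log2 scale (SE 0.12, adjusted p = 0.00444), from 16.0 and 18.9 TPM to 10.5, 10.7 and 9.32 TPM. KRT10 fell by 0.71 (SE 0.11, adjusted p = 0.00322), from 76.4 and 84.1 TPM to 51.3, 49.1 and 45.5 TPM.

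The other 4 keratins did not pass in HT29 either way. KRT80 stood at 113 ± 10.5 TPM in HPLM, each library above every RPMI-1640 library, with a log2 change of 0.51 ± 0.19 (adjusted p = 0.163) and, without library 1, 0.36 ± 0.13 (adjusted p = 0.0569). KRT19 stood at 705, 652 and 612 TPM, below every RPMI-1640 library, with -0.39 ± 0.17 (adjusted p = 0.219) and -0.28 ± 0.12 (adjusted p = 0.0993). KRT15 gave -0.25 ± 0.15 (adjusted p = 0.365) and -0.30 ± 0.12 (adjusted p = 0.0907). KRT20 gave -0.17 ± 0.25 (adjusted p = 0.726) and 0.09 ± 0.11 (adjusted p = 0.535), and its HPLM libraries overlapped those in RPMI-1640. In the authors' deposited table for HT29 the log2 fold change was 0.72 for KRT23 (authors' adjusted p = 0.00410), -0.68 for KRT7 (0.0639), 0.57 for KRT80 (0.0615) and -0.31 for KRT19 (0.0514).

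Whether the effect of HPLM differed between the lines was tested as an interaction, the change in HT29 minus the change in H441, over all 12 libraries. The fit takes 1 spread per gene for all groups, although the HT29 RPMI-1640 libraries varied more. Of 10 keratins 3 passed, each with the lower value in HT29, against 14.4% of 19212 genes in either direction and 11.4% in that one. KRT7 differed by -1.68 ± 0.19 (adjusted p = 6.27e-04), KRT80 by -1.05 ± 0.19 (adjusted p = 0.00642) and KRT17 by -1.94 ± 0.51 (adjusted p = 0.0293). KRT7 passed under all 21 alternatives run, with -1.85 without HT29 RPMI-1640 library 1. KRT80 lost its call without mitochondrially encoded genes (-0.76, adjusted p = 0.0569) and under trimmed mean scaling (-0.80, adjusted p = 0.0550). KRT17 passed under 6 of the 21 alternatives; leaving out any library other than HT29 RPMI-1640 library 1 or 3 ended its call (adjusted p up to 0.0739), and without library 1 it was -2.49 ± 0.14 (adjusted p = 3.68e-06). Leaving out library 1 also brought KRT10 (-0.91 ± 0.24, adjusted p = 0.0172) and KRT23 (0.51 ± 0.16, adjusted p = 0.0295) past the threshold, so that 5 of 10 passed, 4 lower and 1 higher in HT29, against 36% of 19045 genes, 25.9% lower and 10.1% higher. KRT23 passed the minimum level through HT29 alone and did not pass 0.214 TPM in H441. Its value here mainly repeats its change in HT29 and is a description.

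Within the 10 keratins the balance of the types shifted in H441. The 3 type II genes summed to 1914 ± 61.8 TPM in RPMI-1640 and 3230 ± 75.3 TPM in HPLM, and the 7 type I genes to 3450 ± 118 and 3847 ± 125 TPM. Keratins outside the 10 are not in these sums, among them the type II keratin KRT4, which went from 332 to 265 TPM. The ratio of type II to type I was 0.549, 0.555 and 0.560 in RPMI-1640 and 0.834, 0.851 and 0.835 in HPLM, 2 sets that did not overlap (exact permutation test, two-sided p = 0.1, the smallest possible). KRT7 alone made up 17.9 to 18.6% of the summed level in RPMI-1640 and 28.2 to 28.8% in HPLM, while KRT19 went from 37.6 to 37.8% down to 27.6 to 27.9%. In HT29 the ratio was 0.477 in RPMI-1640 library 1, 0.324 and 0.318 in the other libraries, and 0.394, 0.389 and 0.376 in HPLM (exact permutation test, two-sided p = 1 with all libraries). The summed share of TPM was 0.708% ± 0.0199 in H441 in HPLM, above every RPMI-1640 library (exact p = 0.1), and 0.676% ± 0.0433 in HT29 in HPLM, within the range of the RPMI-1640 libraries. These sums mix changes of single genes with the scaling limits given above.

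**Figure D4:**
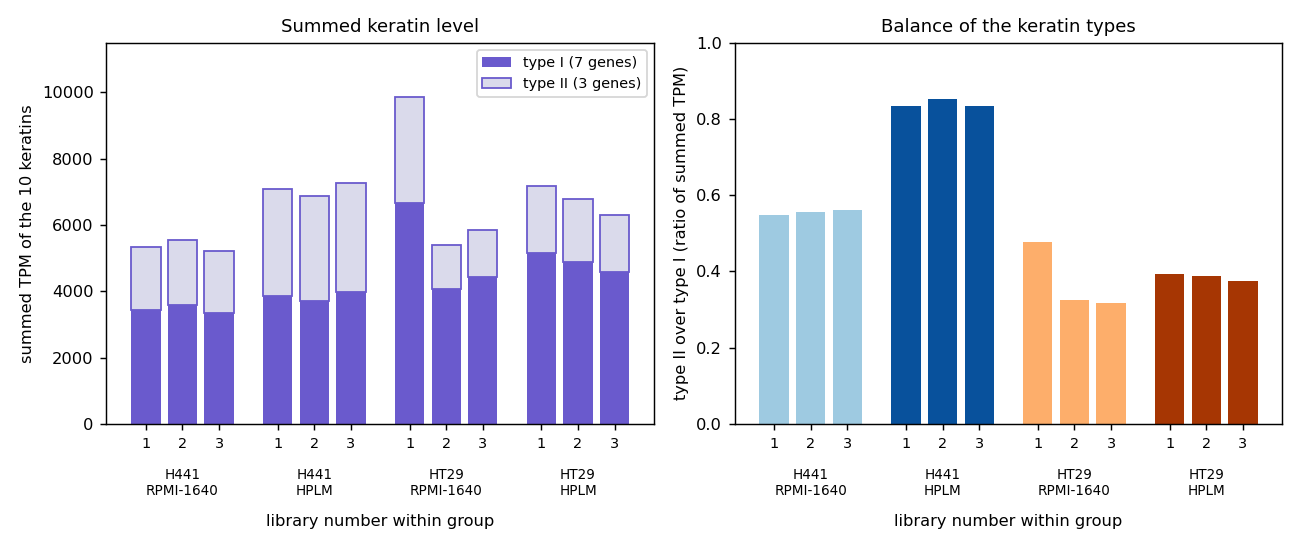
Left, summed TPM of the 7 type I (dark) and 3 type II (light) keratins in each of the 12 libraries, stacked from 0; right, the ratio of the type II to the type I sum in the same libraries. The ratio lies at 0.549 to 0.560 in H441 in RPMI-1640 and at 0.834 to 0.851 in HPLM, and the tallest stack, 9854 TPM, is HT29 RPMI-1640 library 1.

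Of 45 other keratin genes, 11 reached 1 TPM in some library. In H441 7 of them were tested, of which 4 rose and 1 fell in HPLM, against 33.7% and 11.3% of all genes, with a median log2 change of 0.32 beside 0.14 over all genes. The rise was led by hair keratins of the type II cluster: KRT81 went from 7.37, 6.68 and 5.45 TPM to 35.3, 33.3 and 37.1 TPM (2.28 ± 0.11, adjusted p = 1.68e-04), and KRT86 from 2.28 ± 0.363 to 12.5 ± 0.821 TPM (2.04 ± 0.10, adjusted p = 1.68e-04). KRT81 shared 42.5% of its 31-base words with KRT86, and KRT86 overlaps KRT7, so these levels are uncertain. KRT4, the mucosal type II keratin that fell in H441, stood at 332 ± 14.1 TPM in RPMI-1640 and 265 ± 9.83 TPM in HPLM, and did not pass 1.40 TPM in HT29. KRT4 and KRT78 passed the minimum level through H441, so a difference between the lines was bound to follow. That of KRT4 was -7.46 ± 0.15 in RPMI-1640 and -7.67 ± 0.15 in HPLM (adjusted p = 5.74e-11 and 4.66e-11), and KRT78 differed by -4.41 ± 0.11 and -4.63 ± 0.11. In HT29 0 of 5 other keratins passed the medium test with limma, against 6.11% of all genes, 0 at an unadjusted p under 0.05 and 0 with edgeR or DESeq2. KRT86 gave 0.88 ± 0.37 (adjusted p = 0.209) and KRT83 0.66 ± 0.37 (adjusted p = 0.324). Without library 1, 2 rose and 1 fell, against 19.9% and 21.7% of all genes. The interaction called 1 of 10, KRT16, a keratin of stressed epidermis, against 14.4% of all genes, and 5 of 10 without HT29 RPMI-1640 library 1, against 36%. KRT16 went from 1.37 ± 0.330 to 7.37 ± 1.17 TPM in H441 and from 0.928 ± 0.470 to 0.246 ± 0.116 TPM in HT29 (-2.42 ± 0.28, adjusted p = 6.06e-04), while KRT86 gave -1.16 ± 0.42 (adjusted p = 0.0925). On average KRT16 stayed under 1 TPM in HT29 and passed the minimum level through H441, so its call is a description. It also shared 31.8% of its 31-base words with other genes, which makes its level uncertain.

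Genes that hold keratin filaments at desmosomes and hemidesmosomes moved in no single direction. In H441 6 of 14 tested rose and 2 fell, shares close to the 33.7% and 11.3% of all genes, with a median log2 change of 0.09 beside 0.14. DSC2, a desmosomal cadherin, rose by 0.38 ± 0.05 (adjusted p = 0.00243) and ITGA6, the integrin chain of hemidesmosomes, by 0.61 ± 0.08 (adjusted p = 0.00272). In HT29 0 of 15 passed with limma, against 6.11% of all genes, 2 at an unadjusted p under 0.05, 1 with edgeR and 3 with DESeq2. The numbers of all genes under these tests are those given above for HT29. Without library 1, 1 rose and 2 fell, against 19.9% and 21.7% of all genes. PLEC, the linker plectin, gave 0.51 ± 0.15 in HT29 (adjusted p = 0.102) and LAD1 -0.66 ± 0.27 (adjusted p = 0.190). PLEC was the 1 of 15 to pass the interaction (0.50 ± 0.14, adjusted p = 0.0388), against 14.4% of all genes. With a pseudocount of 0.1, with the replicate block, without any one H441 library and without HT29 HPLM library 1 or 2, 0 of 15 passed. Over all genes these settings called 1656 to 2184. Without HT29 RPMI-1640 library 1, 5 did, against 36% of all genes. COL17A1, a hemidesmosomal collagen that passed the minimum level through HT29 alone, was at 47.6 ± 17.9 TPM in HT29 and 0.249 ± 0.143 TPM in H441 in RPMI-1640, and ITGA6 at 188 ± 92.2 and 6.02 ± 0.234 TPM. DSP, which encodes desmoplakin, was higher in HT29 by 2.03 ± 0.15 in HPLM (adjusted p = 8.19e-07).

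Of 9 other intermediate filament genes 5 were tested in each line. In H441 VIM, the filament of mesenchymal cells, rose from 3.35 to 3.62 TPM in RPMI-1640 to 4.44 to 5.81 TPM in HPLM (0.41 ± 0.09, adjusted p = 0.0171) and LMNB1 fell from 323 to 346 TPM to 220 to 226 TPM (-0.59 ± 0.05, adjusted p = 6.52e-04). Thus 1 of 5 rose and 1 fell, where 33.7% of all genes rose and 11.3% fell. In HT29 0 of 5 passed with limma, against 6.11% of all genes. At an unadjusted p under 0.05 there was 1, NES, against 4052 of 16352 genes. edgeR called 1 and DESeq2 2, beside the numbers of all genes given above for HT29. NES gave -0.76 ± 0.17 (adjusted p = 0.0521) and LMNB1 -1.25 ± 0.60 (adjusted p = 0.262) with limma. SYNM stood at 2.93 ± 0.485 TPM in RPMI-1640 for H441 and at 0.0312 ± 0.0541 TPM for HT29, and NES at 1.79 ± 0.415 TPM in HT29 in RPMI-1640 and at 0.250 to 0.639 TPM on average in the other groups. Each passed the minimum level only through its high group. The call of SYNM between the lines, the HT29 result of NES at the unadjusted threshold, and the interaction call of NES are therefore descriptions.

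Among 19 transcription factors of epithelium, 5 of 16 tested rose and 3 fell in H441, where 33.7% of all genes rose and 11.3% fell. TFAP2C fell by 0.63 on the log2 scale (SE 0.04, adjusted p = 4.05e-04), and KLF4 rose by 0.70 ± 0.08 (adjusted p = 0.00143). In HT29 2 of 15 fell, against 3.58% of all genes, GRHL1 (-1.20 ± 0.17, adjusted p = 0.0175) and KLF5 (-0.83 ± 0.16, adjusted p = 0.0354), and without library 1 9 fell and 2 rose, against 21.7% and 19.9%. The interaction called 6 of 18, against 14.4% of all genes, led by TFAP2C (1.14 ± 0.18, adjusted p = 0.00342) and KLF5 (-0.90 ± 0.15, adjusted p = 0.00449). That count was 2 without mitochondrially encoded genes, beside 2343 of 20517 genes, and 2 under trimmed mean scaling, beside 2577 of 19237 genes. It was 15 with array weights, beside 11122 of 19212 genes. Without HT29 RPMI-1640 library 1 it was 12 of 18, against 36% of 19045 genes. TFAP2C averaged 33.8 TPM over the H441 libraries and 17.3 TPM over all 12. Its level in HT29 was thus near the minimum, it entered the interaction through H441, and its change in HT29 is uncertain. NKX2-1, the lung factor, in RPMI-1640 was at 174 ± 0.109 TPM for H441 against 0.481 ± 0.320 TPM for HT29, and GRHL1 was at 53.1 ± 1.54 TPM against 6.71 ± 1.11 TPM.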

How the data were processed

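The submitters' processing notes name STAR 2.5.2b, Trimmomatic 0.36, DESeq2, Subread 1.5.2 and the build GRCh38, without roles, order or annotation. The authors deposited TPM values, normalized for length and library, for 58051 identifiers. Their second deposited table per line gives the log2 fold change and p-value of HPLM over RPMI-1640 and, per library, the deposited signal, a read count divided by a size factor, from which whole reads were recovered.

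TPM were tested with limma 3.58.1 (R 4.3.3) on log2(TPM + 1), two-sided, for genes at 1 TPM or more in at least 3 libraries; fold changes on this scale understate changes of low genes. Each line was fitted alone for the medium, and all 12 libraries together for the lines and the interaction. Alternatives were a pseudocount of 0.1, no minimum level, 3 other scalings, array weights, edgeR 4.0.16 and DESeq2 1.42.0 on recovered reads, a replicate block, and leaving out each library. The scripts were tested on simulated data. Symbols and coordinates came from GENCODE 29. Named genes were the 10 keratins, per other list the 2 with the smallest adjusted p per comparison at a mean of 1 TPM or more, and the 2 genes most like each keratin of at least 10 TPM; other genes named with values, such as LGALS4 and CDX2, were picked after their values were seen. The members and lists were chosen with earlier results of these data known.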

Additional observations from a re-analysis of the deposited data

Results flagged for a closer look

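Effects of HPLM that differed between the lines were found for 3 keratins by the interaction test in limma. KRT7 differed by -1.68 ± 0.19 on the log2 scale (HT29 minus H441, adjusted p = 6.27e-04), with 3 of 3 HPLM libraries above all RPMI-1640 libraries in H441 and 3 of 3 below them in HT29. KRT80 differed by -1.05 ± 0.19 (adjusted p = 0.00642), with 3 of 3 HPLM libraries above all RPMI-1640 libraries in both lines. KRT17 differed by -1.94 ± 0.51 (adjusted p = 0.0293), with 3 of 3 HPLM libraries above all RPMI-1640 libraries in H441, where RPMI-1640 gave 3 to 9 reads, and overlapping libraries in HT29. The adjusted p over the alternatives ranged up to 0.0151 for KRT7, 0.0569 for KRT80 and 0.0833 for KRT17.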

How the results depend on the processing

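Counts of genes past the threshold in HT29 depended most on the processing. Against 999 genes they were 1522 without mitochondrially encoded genes, 1532 under trimmed mean scaling, 4625 with array weights, 1776 with edgeR, 3416 with DESeq2, 0 with the replicate block and 0 to 6666 with 1 library left out, 6666 being without RPMI-1640 library 1, 7 and 258 without RPMI-1640 library 2 and 3, and 3, 4 and 0 without HPLM library 1, 2 and 3. Keratins called in HT29 were 1 without mitochondrially encoded genes (KRT23), 3 with array weights (KRT7, KRT10 and KRT80), 1 with DESeq2 and 0 to 6 with 1 library left out. In H441 leaving out 1 library gave 3 to 5 keratins against 6, with 3 without HPLM library 1 or 3, where KRT17 was no longer tested. Over all genes it gave 5684 to 6435 in H441, against 7404. For the interaction, genes called were 11122 with array weights, 1656 with the replicate block and 1732 to 6851 with 1 library left out, the highest without HT29 RPMI-1640 library 1, against 2773, and keratins called were 6 with array weights and 2 to 5 with 1 library left out. Between the lines in RPMI-1640 array weights called 16164 genes against 10624. The gain of the summed keratin share in H441 was 0.146 percentage points without mitochondrially encoded genes, against 0.171.

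The split of called genes moved with scaling. In H441 5546 rose and 1858 fell as reported, 3873 and 3497 under trimmed mean scaling, 3208 and 4171 under median centring, 4004 and 3355 without mitochondrially encoded genes, 4381 and 4190 with edgeR, and 3662 and 3775 with DESeq2. In HT29 the split was 414 and 585 as reported, 850 and 682 under trimmed mean scaling, 756 and 702 under median centring, and 987 and 535 without mitochondrially encoded genes. For the interaction it was 577 and 2196 as reported, 1156 and 1421 under trimmed mean scaling, 1130 and 1305 under median centring, and 1178 and 1165 without mitochondrially encoded genes. For the lines in HPLM it was 4280 and 7770, 5838 and 6284, 6008 and 5987, and 5881 and 6564 in that order.

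Signs that turned all belonged to values that were not called as reported. In HT29 KRT20 was 0.0945 with array weights. In the interaction KRT8 was 0.11 without mitochondrially encoded genes, 0.0698 under trimmed mean scaling, 0.0241 under median centring, 0.31 with array weights (adjusted p = 0.00529) and 0.00017 with DESeq2. KRT15 was 0.22, 0.19 and 0.18 under the same 3 scalings, 0.16 with edgeR and 0.17 with DESeq2, and KRT18 was 0.0150 without mitochondrially encoded genes and 0.0509 with array weights. With 1 library left out KRT10 ranged from -0.0167 to 0.35 in H441; in HT29 KRT8 ranged from -0.20 to 0.48, KRT17 from -0.72 to 0.16, KRT18 from -0.0324 to 0.38 and KRT20 from -0.31 to 0.0924; in the interaction KRT8 ranged from -0.43 to 0.25, KRT15 from -0.0799 to 0.0499 and KRT20 from -0.0183 to 0.51. The cause was not tested.

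The labels do not say whether library numbers pair samples, and the main fits used no pairing. Deviations of same-numbered libraries correlated by -0.0298, 0.0151 and -0.00337 in H441 and by 0.0538, -0.0973 and 0.171 in HT29. With so few libraries in a group these values cannot settle whether samples were paired. With the replicate block 5483 genes were called in H441, and the calls of KRT8 (adjusted p = 0.0692) and KRT15 (adjusted p = 0.0637) in H441 and of KRT17 in the interaction (adjusted p = 0.0645) were lost. Depth limits KRT17 and KRT20 in H441, which rest on at most 60 reads a library.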

Other observations

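For each keratin with a mean of at least 10 TPM, the genes with the most similar profile were sought among 9218 genes, by the root mean square difference of centred log2(TPM + 1) over the 12 libraries. These points share 2 lines, 4 groups and the library that stands apart, so the likeness follows mainly the step between the lines and is a description. For KRT7 they were PLAU (difference 0.302), a plasminogen activator, and MUC1 (0.380), a mucin. PLAU stood at 478 TPM in H441 in RPMI-1640, 791 TPM in HPLM and 2.92 and 3.17 TPM in HT29. For KRT20 they were LYZ (0.319), which encodes lysozyme, and TSPAN8 (0.467), a tetraspanin; LYZ stood at 4.34 and 3.74 TPM in H441 and at 2929 and 1957 TPM in HT29, RPMI-1640 first. For KRT80 they were CSGALNACT2 (0.158) and ADGRF4 (0.222), and CSGALNACT2 went from 11.2 to 29.4 TPM in H441 and from 11.1 to 14.0 TPM in HT29. The most similar genes were RPUSD1 and COPRS for KRT8, TRA2A and FAM174C for KRT18, USP43 and FXR1 for KRT19, MSRB2 and CRNDE for KRT10, and MOB3A and CFL2 for KRT15, at differences of 0.0830 to 0.153.

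Of 137 keratin pseudogenes 27 reached 1 TPM, and one dominated. KRT16P2 was at 574, 565 and 569 TPM in H441 in RPMI-1640 and 478, 542 and 525 TPM in HPLM, against 2.93, 3.13 and 2.61 TPM and 0.877, 0.797 and 0.217 TPM in HT29. The log2 difference between the lines was -7.20 ± 0.15 in RPMI-1640 and -8.33 ± 0.15 in HPLM (limma, adjusted p = 6.71e-11 and 3.34e-11). KRT16 did not pass 8.40 TPM in any library. KRT16P2 shared 66.1% of its 31-base words with KRT16P1 and 16.8% with KRT16. KRT16P3 was at 6.91 and 5.63 TPM in H441 in RPMI-1640 and HPLM and at 0.138 and 0 TPM in HT29, and passed the minimum level through H441 alone. In H441 10 keratin pseudogenes were tested for the medium, of which 2 rose and 2 fell, against 33.7% and 11.3% of all genes, among them KRT8P12 (0.79 ± 0.10, adjusted p = 0.00220) and KRT16P6 (-0.81 ± 0.13, adjusted p = 0.00493). In HT29 1 of 13 passed, KRT16P2 (-1.28 ± 0.21, adjusted p = 0.0256), against 6.11% of all genes, and KRT17P4 gave -0.80 ± 0.19 (adjusted p = 0.0622). Both passed the minimum level through the RPMI-1640 libraries, where they are high, so these values are descriptions. The interaction called 2 of 18, against 14.4% of all genes: KRT16P2 (-1.13 ± 0.22, adjusted p = 0.00758) and KRT16P6 (0.70 ± 0.18, adjusted p = 0.0290), the latter at the minimum level in H441 alone.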
